A study of Mus musculus with 8 samples.

Results

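The 10 genes described here encode proteins that coat lipid droplets, fuse them, help to form them or draw fat from them. They are the 3 CIDE genes Cidea, Cideb and Cidec, the 4 perilipin genes Plin2, Plin3, Plin4 and Plin5, the FIT genes Fitm1 and Fitm2, and the lipase gene Pnpla2. They were taken by gene name from a deposited table of 55487 genes, in which all 10 were present, and their levels were compared across 8 liver libraries. RNA was sequenced from liver of male C57BL/6N mice, wild type by the labels, in 4 groups. The western diet + CCl4 group (WD+CCl4) had 1 library, from mice on a high-fat diet whose drinking water held fructose (23.1 g/L) and glucose (18.9 g/L) and that received CCl4 into the peritoneum each week. The western diet + oil group (WD+oil, 2 libraries) had that diet with corn oil in place of CCl4. The normal diet + CCl4 group (ND+CCl4, 2 libraries) had chow and tap water with CCl4, and the normal diet + oil group (ND+oil, 3 libraries) had chow and tap water with corn oil. The sources used here do not give the CCl4 dose, the weeks of feeding or the animals' age. CCl4 is a solvent that cytochrome P450 enzymes of the hepatocyte turn into a reactive radical.

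As background, a lipid droplet is a core of triglyceride and sterol ester under a single phospholipid layer, and in the liver it holds the fat that hepatocytes take up or make. FIT proteins of the endoplasmic reticulum act where droplets form, and perilipins cover the surface and control which lipases reach the core. CIDE proteins gather where droplets touch and pass lipid from the smaller to the larger, and the lipase made by Pnpla2 takes the first fatty acid from triglyceride. In mouse, Cidea and Cidec are known best from brown and white fat and are also known to be expressed in fatty liver, whereas Cideb and Plin2 are regular hepatocyte genes.

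Levels are FPKM, fragments scaled to transcript length and to the mapped fragments, as the authors deposited them, so levels of different genes can be set side by side per length. Between 12531 and 14843 genes stood above 0 in a library, and the lowest value above 0 was between 0.252 and 0.318 FPKM; the read depth is unknown. The major urinary protein (Mup) genes of the hepatocyte took 7.06% of the FPKM sum in the WD+CCl4 library, 8.16% and 8.61% in WD+oil, 2.33% and 3.98% in ND+CCl4, and 15.6%, 20.6% and 30.6% in ND+oil libraries 1, 2 and 3. FPKM is a share of a library, and the median log2 difference of all tested genes against ND+oil was 0.19 for WD+CCl4, 0.22 for WD+oil and 0.26 for ND+CCl4. Hepatocyte markers (Alb, Ttr, Apoa1, Hnf4a and Cyp2e1) summed to 33444 FPKM in WD+CCl4, 28978 to 36389 in WD+oil, 45256 to 53098 in ND+CCl4 and 30543 to 39465 in ND+oil. Alb was the largest part of each sum and was highest in ND+CCl4, at 38054 and 32099 FPKM. Cyp2e1 went another way, with every CCl4 library below every oil library. It was at 1032 FPKM in WD+CCl4, 1887 and 2160 in WD+oil, 1070 and 1351 in ND+CCl4, and 2297, 2406 and 1790 in ND+oil. In whole liver, fewer cells of a type and less RNA per cell cannot be told apart.

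Of the 10 genes, Cidea, Cidec, Plin3 and Plin4 rose in WD+oil against ND+oil, and none fell. Differences were tested with limma on log2(FPKM + 1) over the 11514 genes that had at least 1 FPKM in at least 2 libraries, and a gene was called at an adjusted p below 0.05. All 10 genes passed that filter, Cidea through its 3 western diet libraries alone, so its place among the tested genes rests on the groups where it is high. The 4 calls of 10 stand against 4.41% of all tested genes called in the contrast, 3.81% higher and 0.599% lower. The 10 genes were chosen with earlier results of these data known, and Cidea is among the 4. Counts and medians of the 10 are therefore descriptions beside those of all tested genes, and the 10 were not tested as a set. No gene of the 10 was called in ND+CCl4 against ND+oil, where 1.42% of tested genes were called by limma, 1.02% higher and 0.4% lower. There, 4 of the 10 (Plin5, Fitm1, Fitm2 and Pnpla2) had an unadjusted p below 0.05, beside 22.8% of all tested genes. Cidec alone of the 10 was called in WD+CCl4 against ND+oil, against 0.929% of tested genes, 0.669% higher and 0.261% lower. These contrasts share the 3 ND+oil libraries. The single WD+CCl4 library was assumed to vary like those of the other groups, and the labels do not say whether each library is a separate animal. Each p therefore measures the spread among these libraries, which may be technical. The median log2 difference of the 10 genes was 0.92 in WD+oil against ND+oil, beside 0.22 over all tested genes, 0.32 in ND+CCl4 against ND+oil, beside 0.26, and 0.85 in WD+CCl4 against ND+oil, beside 0.19. Without WD+oil library 1 or without library 2, 1 of the 10 was called in WD+oil against ND+oil, and without ND+oil library 2 it was 2. For ND+CCl4 against ND+oil the count was 2 without ND+CCl4 library 2 and 1 without ND+oil library 3.

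**Figure D1:**
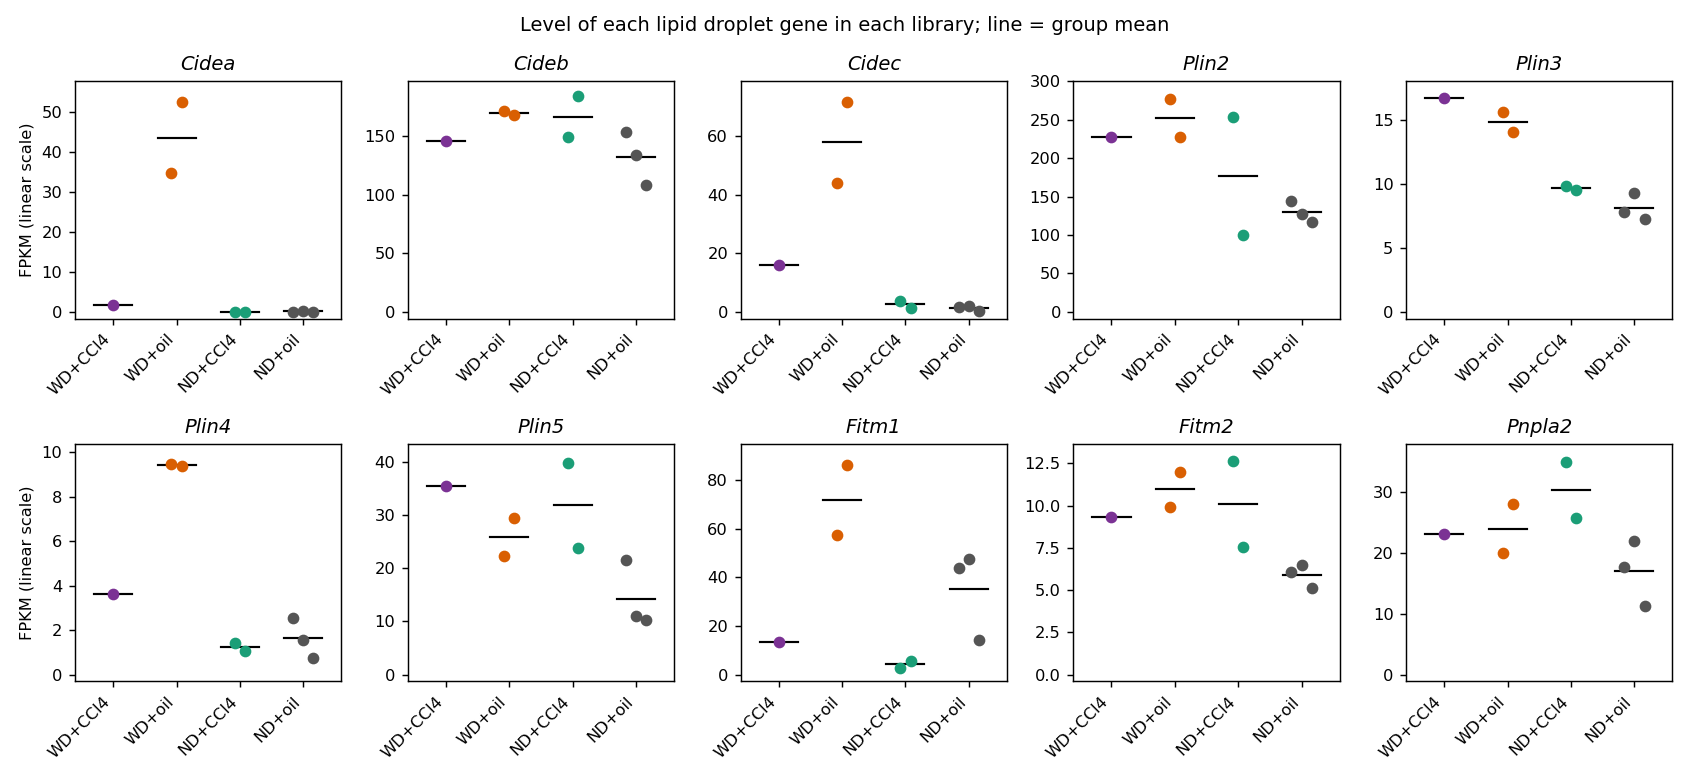
FPKM (vertical axis, linear, from 0) of each of the 10 genes in each library, with groups along the horizontal axis, 1 point per library and a line at the group mean. Both WD+oil points of Cidea, Cidec and Plin4 sit above every other library, and both ND+CCl4 points of Fitm1, at 2.71 and 5.67 FPKM, sit below every other library.

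Among the CIDE genes, Cidea was at 1.81 FPKM in the WD+CCl4 library, at 34.9 and 52.4 FPKM in the WD+oil libraries, listed at 0 in both ND+CCl4 libraries, and at 0, 0.344 and 0 FPKM in the ND+oil libraries. The gene (ENSMUSG00000024526, GENCODE M21 on GRCm38, chr18:67343604-67367785, plus strand) was thus above 1 FPKM in the 3 western diet libraries and in no library of the normal diet. On log2(FPKM + 1) it was 5.31 ± 0.22 (SE) higher in WD+oil than in ND+oil (limma, adjusted p = 0.000129) and 5.45 ± 0.24 higher in WD+oil than in ND+CCl4 (limma, adjusted p = 0.000214), with no overlap between groups. These differences depend on the pseudocount because the lower groups lie at or near 0, so they measure no fold. The gene also passed the filter through its western diet libraries alone, so the adjusted p values are read as a description of these levels. Both calls were kept with each of the 8 libraries left out in turn, with limma differences of 5.02 to 8.03 and 5.16 to 8.74 over all alternatives. Cidea was also the gene of the 10 that differed by CCl4 among western diet livers: the difference of WD+CCl4 from WD+oil was -3.96 ± 0.30 on the log2 scale (limma, adjusted p = 0.00956). In that contrast 0.0434% of tested genes were called, 0.0261% higher and 0.0174% lower. That call was lost without WD+oil library 2 (-3.68, limma adjusted p = 0.0767), with a pseudocount of 0.1 (-4.49, 0.53) and with a mean FPKM of at least 5 as the filter (0.063). The interaction of diet and CCl4 was -3.82 ± 0.37 (limma, adjusted p = 0.0286), where 0.0608% of tested genes were called, 0.0347% positive and 0.0261% negative. Cidea was at or near 0 in all normal diet libraries and could not be lower there with CCl4, so this value largely restates the difference between WD+CCl4 and WD+oil and does not show that the effect of CCl4 depends on diet. The interaction passed under none of the 6 processing alternatives (limma, adjusted p from 0.0514 to 0.424), nor without WD+oil library 1 (-4.11, 0.0562), WD+oil library 2 (-3.53, 0.153), ND+CCl4 library 1 (-3.82, 0.0974) or ND+oil library 1 (-3.75, 0.0566).

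Cideb, which takes part in loading lipid onto very low density lipoprotein in hepatocytes, was the most abundant CIDE gene in every library. It was at 146 FPKM in WD+CCl4, at 172 and 168 FPKM in WD+oil, at 149 and 184 FPKM in ND+CCl4, and at 153, 134 and 108 FPKM in ND+oil. Both WD+oil libraries lay above all ND+oil libraries, while the other groups overlapped ND+oil. The gene (ENSMUSG00000022219, chr14:55754050-55758458, minus strand) passed in no contrast: the log2 difference was 0.16 ± 0.27 in WD+CCl4 (limma, adjusted p = 0.821), 0.38 ± 0.21 in WD+oil (0.326) and 0.34 ± 0.21 in ND+CCl4 (0.332), each against ND+oil. Exons of Cideb overlap those of Nop9 on the opposite strand, which was at 6.52 to 11.3 FPKM.

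Cidec, whose protein (also called FSP27) enlarges droplets by passing lipid between them, was at 16.1 FPKM in WD+CCl4, at 44.1 and 71.5 FPKM in WD+oil, at 3.66 and 1.46 FPKM in ND+CCl4, and at 1.59, 2.15 and 0.431 FPKM in ND+oil. The 3 western diet libraries lay above the 5 normal diet libraries, and WD+oil lay above WD+CCl4. Mean levels were 57.8 ± 19.3 FPKM in WD+oil (SD, n = 2) and 1.39 ± 0.876 FPKM in ND+oil (SD, n = 3), a ratio of 41.6, and the limma difference was 4.66 ± 0.40 (adjusted p = 0.00342). For WD+CCl4 against ND+oil it was 2.91 ± 0.51 (limma, adjusted p = 0.0488), and in WD+oil against ND+CCl4 4.08 ± 0.44 (limma, adjusted p = 0.0163), where 0.617% of tested genes were called, 0.408% higher and 0.208% lower. Plin4, Fitm1 and Cidea were the other genes of the 10 called there. For WD+CCl4 against WD+oil, the difference of -1.74 ± 0.54 did not pass (limma, 95% interval -2.98 to -0.50, adjusted p = 0.865). Each call against ND+oil or ND+CCl4 was lost without single libraries. WD+oil against ND+oil had an adjusted p of 0.0536 without WD+oil library 1 and 0.0837 without library 2 (limma). WD+oil against ND+CCl4 had 0.103 and 0.113 without the same libraries. WD+CCl4 against ND+oil had between 0.0679 and 0.104 without any 1 of the WD+oil or ND+oil libraries, and passed under none of the 6 processing alternatives (0.0524 to 0.187). Without a filter on low values, WD+oil against ND+CCl4 had 0.0633. The gene (ENSMUSG00000030278) lies at chr6:113424634-113435760 on the minus strand (GENCODE M21, GRCm38). Its RefSeq promoters (GRCm38.p6, 250 bases before to 50 bases after the start of a transcript) are printed with the closest match to AGGTCANAGGTCA in capitals. They are shown because Cidec is the gene of the 10 that differed in most contrasts against ND+oil. That motif is the direct repeat bound by PPAR-RXR nuclear receptor pairs, and it was searched on both strands.
Cidec promoter 1, chr6:113435711-113436010, minus strand: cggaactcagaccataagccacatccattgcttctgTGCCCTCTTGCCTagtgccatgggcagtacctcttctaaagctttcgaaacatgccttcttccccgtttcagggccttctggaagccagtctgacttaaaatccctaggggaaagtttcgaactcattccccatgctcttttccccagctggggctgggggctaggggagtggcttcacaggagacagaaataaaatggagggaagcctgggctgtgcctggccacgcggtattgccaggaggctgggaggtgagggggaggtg
Cidec promoter 2, chr6:113434715-113435014, minus strand: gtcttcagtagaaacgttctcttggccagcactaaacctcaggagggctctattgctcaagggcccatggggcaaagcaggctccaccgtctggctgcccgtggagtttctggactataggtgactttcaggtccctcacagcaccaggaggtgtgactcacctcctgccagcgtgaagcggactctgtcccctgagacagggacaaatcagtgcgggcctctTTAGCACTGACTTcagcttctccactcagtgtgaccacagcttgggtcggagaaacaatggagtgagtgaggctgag
The match in promoter 1 had 3 mismatches and lay at -214 to -202 from the start, and that in promoter 2 had 4. Of 32851 mouse promoters of the same length, 24.6% held a match with 3 or fewer mismatches and 0.0396% an exact one. The match is a description of the sequence and not a binding site.

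Within the CIDE family, Cideb held a smaller share in western diet livers. It held 89.1% of the summed CIDE FPKM in WD+CCl4, 68.5% and 57.6% in WD+oil, 97.6% and 99.2% in ND+CCl4, and 99.0%, 98.2% and 99.6% in ND+oil. Cidec held 9.84% in WD+CCl4, 17.6% and 24.5% in WD+oil, 2.39% and 0.787% in ND+CCl4, and 1.03%, 1.57% and 0.397% in ND+oil. Cideb exceeded Cidec 9.05-fold in WD+CCl4, 3.89-fold and 2.35-fold in WD+oil, 40.8-fold and 126-fold in ND+CCl4, and 96.2-fold, 62.4-fold and 251-fold in ND+oil. These ratios are within a library, where a common scaling of all genes drops out, and the western diet libraries do not overlap with the normal diet ones.

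**Figure D2:**
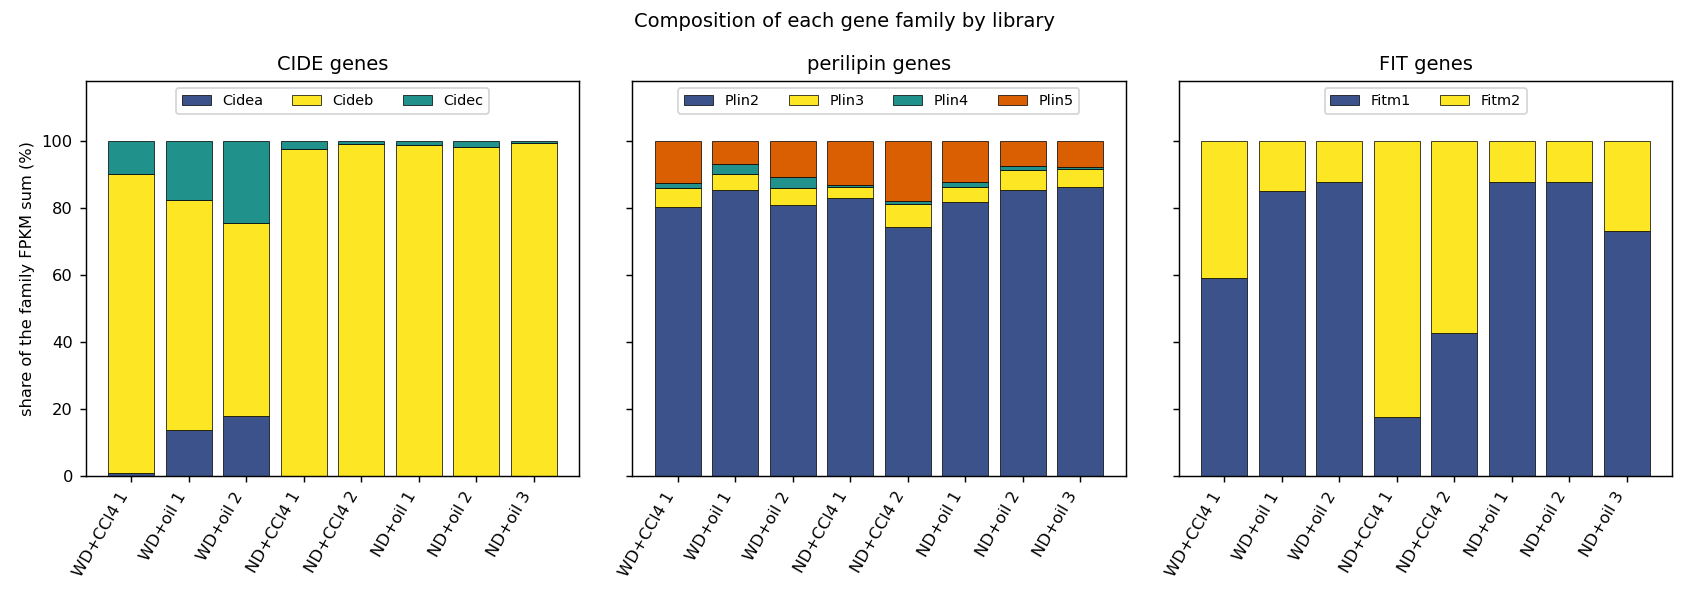
Share of the family's summed FPKM (vertical axis, percent) held by each CIDE, perilipin and FIT gene in each library, 1 stacked bar per library. Cidec fills 17.6% and 24.5% of the CIDE bar in the WD+oil libraries, Plin2 fills 74.3% to 86.5% of the perilipin bar in all 8, and Fitm1 fills 17.7% and 42.8% of the FIT bar in the ND+CCl4 libraries.

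Of the perilipins, Plin4 and Plin3 rose with the western diet under oil. Plin4, best known in mouse from white fat, was at 3.63 FPKM in WD+CCl4, at 9.45 and 9.38 FPKM in WD+oil, at 1.44 and 1.07 FPKM in ND+CCl4, and at 2.55, 1.56 and 0.767 FPKM in ND+oil. The WD+oil libraries were the highest, WD+CCl4 came next, and ND+CCl4 lay within the range of ND+oil. The mean was 9.41 ± 0.0484 FPKM in WD+oil (SD, n = 2) and 1.62 ± 0.891 FPKM in ND+oil (SD, n = 3), with a log2 difference of 2.05 ± 0.27 (limma, adjusted p = 0.0152). Against ND+CCl4, WD+oil was 2.21 ± 0.30 higher (limma, adjusted p = 0.0257), and WD+CCl4 was 0.88 ± 0.34 above ND+oil without passing (limma, adjusted p = 0.28). The call against ND+oil was lost without WD+oil library 1 (limma, adjusted p = 0.101), WD+oil library 2 (0.179) or ND+oil library 2 (0.0525), and without a filter (0.0538). That against ND+CCl4 was lost without either WD+oil library (0.239 and 0.177), either ND+CCl4 library (0.0596 and 0.074) or ND+oil library 2 (0.0591), with a pseudocount of 0.1 (0.0627) and without a filter (0.0805). Exons of Plin4 (ENSMUSG00000002831, chr17:56100591-56109803, minus strand) overlap those of Hdgfl2 on the opposite strand, which was at 11.6 FPKM in WD+CCl4, 13.5 and 17.96 FPKM in WD+oil, 13.6 and 12.9 FPKM in ND+CCl4, and 9.51, 11.5 and 11.4 FPKM in ND+oil. The kit keeps strand, but the sources used here do not say whether the counting used it, and without it reads of the pair cannot be told apart.

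Plin3, a perilipin that moves from the cytosol onto young droplets, was at 16.7 FPKM in WD+CCl4, at 15.6 and 14.1 FPKM in WD+oil, at 9.79 and 9.49 FPKM in ND+CCl4, and at 7.77, 9.24 and 7.27 FPKM in ND+oil. The 3 western diet libraries lay above the 5 others with no overlap. The mean was 14.8 ± 1.09 FPKM in WD+oil (SD, n = 2) and 8.09 ± 1.02 FPKM in ND+oil (SD, n = 3), with a log2 difference of 0.80 ± 0.16 (limma, adjusted p = 0.0365). The difference of WD+CCl4 from ND+oil was 0.96 ± 0.20 (limma, adjusted p = 0.0832), which did not pass. The call in WD+oil was lost under median-of-ratios scaling (0.56, limma adjusted p = 0.0867), with the Mup genes removed (0.69, 0.0706), without a filter (0.0573) and without any 1 of the 5 libraries compared (adjusted p between 0.0764 and 0.255). Plin3 (ENSMUSG00000024197, chr17:56277476-56292873, minus strand) lies on the same chromosome as Plin4 and Plin5, 159879 bases from Plin5, and Plin5 lies 1797 bases from Plin4.

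Plin2, the usual coat protein of hepatocyte droplets, was the most abundant of the 10 genes per length in 5 of 8 libraries, with Cideb ahead in the other 3. It was at 228 FPKM in WD+CCl4, at 277 and 227 FPKM in WD+oil, at 254 and 99.6 FPKM in ND+CCl4, and at 145, 127 and 117 FPKM in ND+oil. All 3 western diet libraries lay above the ND+oil libraries, and the ND+CCl4 libraries lay on either side of them. The log2 difference from ND+oil was 0.81 ± 0.46 in WD+CCl4 (limma, adjusted p = 0.449), 0.95 ± 0.36 in WD+oil (limma, 95% interval 0.12 to 1.79, adjusted p = 0.169) and 0.30 ± 0.36 in ND+CCl4 (limma, adjusted p = 0.598). None passed. Without ND+CCl4 library 1 or library 2, WD+oil against ND+oil had an adjusted p of 0.0285 and 0.0289 (limma). The difference between ND+CCl4 and ND+oil was -0.03 under median-of-ratios scaling and -0.37 without ND+CCl4 library 1. The promoters of Plin2 (ENSMUSG00000028494, chr4:86648386-86670060, minus strand) and Plin4 are shown for comparison with those of Cidec, in the same window and with the closest match to AGGTCANAGGTCA in capitals.
Plin2 promoter, chr4:86670010-86670309, minus strand: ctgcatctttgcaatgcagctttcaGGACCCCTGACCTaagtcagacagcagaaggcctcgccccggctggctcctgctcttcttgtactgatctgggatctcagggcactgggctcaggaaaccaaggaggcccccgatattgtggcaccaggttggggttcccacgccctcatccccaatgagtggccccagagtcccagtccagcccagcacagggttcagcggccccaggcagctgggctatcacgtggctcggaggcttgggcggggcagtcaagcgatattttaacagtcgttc
Plin4 promoter, chr17:56109733-56110032, minus strand: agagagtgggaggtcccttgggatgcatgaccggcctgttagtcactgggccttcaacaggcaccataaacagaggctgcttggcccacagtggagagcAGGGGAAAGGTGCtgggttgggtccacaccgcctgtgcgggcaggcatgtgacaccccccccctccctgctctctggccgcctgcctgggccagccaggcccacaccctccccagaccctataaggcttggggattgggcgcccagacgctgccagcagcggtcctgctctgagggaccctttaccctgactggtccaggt
The match of Plin2 had 2 mismatches, at -225 to -213, and 3.86% of all promoters held one with 2 or fewer, whereas that of Plin4 had 4. The half-site AGGTCA, which 16.3% of promoters held on either strand, was present in the Plin2 window and not in the Plin4 window. It was in neither Cidec window. Among the other windows searched, it was present only in those of Plin5, which are not shown.

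Plin5, which ties droplets to mitochondria and restrains the lipase of Pnpla2 in tissues that burn fat, was at 35.6 FPKM in WD+CCl4, at 22.4 and 29.5 FPKM in WD+oil, at 39.9 and 23.9 FPKM in ND+CCl4, and at 21.5, 11.0 and 10.3 FPKM in ND+oil. Every library of the 3 exposed groups was above all 3 ND+oil libraries, the lowest of them by less than 1 FPKM. The log2 difference from ND+oil was 1.34 ± 0.44 in WD+CCl4 (limma, adjusted p = 0.208), 0.88 ± 0.35 in WD+oil (0.18) and 1.14 ± 0.35 in ND+CCl4 (0.136), and none passed. WD+oil and ND+CCl4 differed by -0.26 ± 0.38 (limma, 95% interval -1.13 to 0.62, adjusted p = 0.849). Plin5 (ENSMUSG00000011305, chr17:56111601-56117596, minus strand) held 12.5% of the summed perilipin FPKM in WD+CCl4, 6.90% and 10.5% in WD+oil, 13.1% and 17.8% in ND+CCl4, and 12.2%, 7.37% and 7.59% in ND+oil.

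Fitm1, known in mouse chiefly from skeletal and heart muscle, was at 13.5 FPKM in WD+CCl4, at 57.6 and 86.4 FPKM in WD+oil, at 2.71 and 5.67 FPKM in ND+CCl4, and at 43.7, 47.5 and 14.1 FPKM in ND+oil. The 3 CCl4 libraries lay below all 5 oil libraries, WD+CCl4 by less than 1 FPKM below ND+oil library 3. Fitm1 was 3.85 ± 0.56 higher on the log2 scale in WD+oil than in ND+CCl4 (limma, adjusted p = 0.0317). Against ND+oil, the difference was -2.68 ± 0.51 in ND+CCl4 (limma, 95% interval -3.87 to -1.50, adjusted p = 0.054), -1.14 ± 0.65 in WD+CCl4 (limma, adjusted p = 0.453) and 1.16 ± 0.51 in WD+oil (limma, adjusted p = 0.222). None of the 3 passed. For ND+CCl4 against ND+oil the threshold was met without ND+CCl4 library 2 (-3.11, limma adjusted p = 0.0333), without ND+oil library 3 (-3.23, 0.0095), with a mean FPKM of at least 5 as the filter (0.0409) and with the Mup genes removed and the libraries rescaled (-2.83, 0.0376). The call of WD+oil against ND+CCl4 was lost without WD+oil library 1 (limma, adjusted p = 0.23), WD+oil library 2 (0.237), ND+CCl4 library 1 (0.0809), ND+CCl4 library 2 (0.0599) or ND+oil library 2 (0.0543), and without a filter (0.0955). The skeletal muscle markers Acta1, Ckm, Myh1 and Myh4 stood at 0 in all 8 libraries. The list of 5 summed to 1.80 FPKM in WD+CCl4, 0.779 to 1.84 in WD+oil, 0.834 to 1.15 in ND+CCl4 and 0.591 to 0.830 in ND+oil. The promoter of Fitm1 (ENSMUSG00000022215, chr14:55575617-55576954, plus strand) is shown because its levels ordered the groups differently from those of Cidec.
Fitm1 promoter, chr14:55575424-55575723, plus strand: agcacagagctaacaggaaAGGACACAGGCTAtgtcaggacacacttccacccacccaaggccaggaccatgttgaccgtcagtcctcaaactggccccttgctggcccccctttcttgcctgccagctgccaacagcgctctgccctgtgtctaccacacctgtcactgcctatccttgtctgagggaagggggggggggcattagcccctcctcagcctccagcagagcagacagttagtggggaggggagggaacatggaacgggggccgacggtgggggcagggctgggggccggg
The match to AGGTCANAGGTCA had 3 mismatches, at -231 to -219, the same number as in Cidec promoter 1.

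Fitm2, which is expressed in most tissues and is needed for droplets to bud from the endoplasmic reticulum, was at 9.33 FPKM in WD+CCl4, at 9.92 and 12.0 FPKM in WD+oil, at 12.6 and 7.57 FPKM in ND+CCl4, and at 6.07, 6.47 and 5.13 FPKM in ND+oil. All 5 libraries of the exposed groups lay above the 3 of ND+oil. The log2 difference from ND+oil was 0.59 ± 0.28 in WD+CCl4 (limma, adjusted p = 0.372), 0.79 ± 0.22 in WD+oil (0.0841) and 0.65 ± 0.22 in ND+CCl4 (0.161), and none passed. Without ND+CCl4 library 1 or 2 the adjusted p in WD+oil against ND+oil was 0.0308 and 0.0315 (limma), and without ND+CCl4 library 2 the difference in ND+CCl4 against ND+oil was 0.99 (limma, adjusted p = 0.0333). Fitm1 held 59.1% of the summed FIT FPKM in WD+CCl4, 85.3% and 87.8% in WD+oil, 17.7% and 42.8% in ND+CCl4, and 87.8%, 88.0% and 73.3% in ND+oil. Fitm2 (ENSMUSG00000048486, chr2:163466379-163472629, minus strand) was thus the more abundant FIT gene in both ND+CCl4 libraries and in no other.

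Pnpla2, which encodes adipose triglyceride lipase, was at 23.1 FPKM in WD+CCl4, at 19.9 and 28.0 FPKM in WD+oil, at 34.8 and 25.6 FPKM in ND+CCl4, and at 17.7, 21.8 and 11.3 FPKM in ND+oil. The ND+CCl4 libraries and the WD+CCl4 library lay above those of ND+oil, and the WD+oil libraries overlapped them. The log2 difference from ND+oil was 0.47 ± 0.37 in WD+CCl4 (limma, adjusted p = 0.592), 0.50 ± 0.29 in WD+oil (0.351) and 0.83 ± 0.29 in ND+CCl4 (limma, 95% interval 0.15 to 1.51, adjusted p = 0.169), and none passed. G0s2, an inhibitor of this lipase, was the more abundant in all 8 libraries. The ratio of Pnpla2 to G0s2 was 0.176 in WD+CCl4, 0.203 and 0.319 in WD+oil, 0.207 and 0.163 in ND+CCl4, and 0.167, 0.305 and 0.218 in ND+oil. The ratio of Pnpla2 to Abhd5, its activator, was 4.14 in WD+CCl4, 3.08 and 4.29 in WD+oil, 5.47 and 5.31 in ND+CCl4, and 2.87, 4.21 and 1.60 in ND+oil. Both ND+CCl4 libraries held the highest ratios of Pnpla2 to Abhd5, whereas the ratios to G0s2 overlapped between all groups with more than 1 library. Pnpla2 (ENSMUSG00000025509) lies at chr7:141455198-141460743 on the plus strand.

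**Figure D3:**
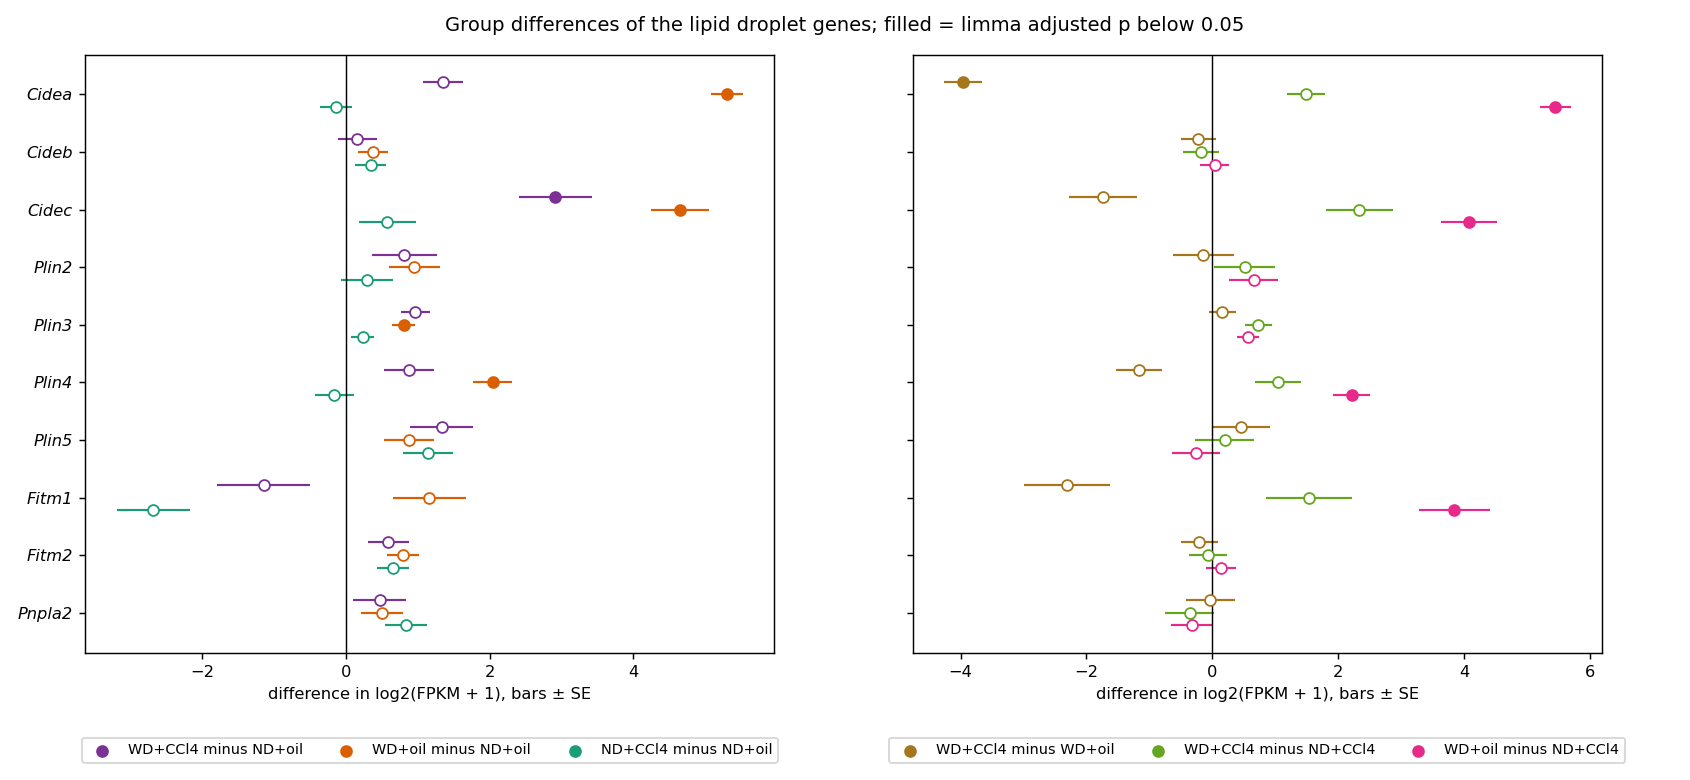
Difference in log2(FPKM + 1) between groups (horizontal axis) with its SE for each of the 10 genes (rows), with the 3 contrasts against ND+oil on the left and the 3 between the other groups on the right; filled points have a limma adjusted p below 0.05. Cidec and Cidea lie farthest to the right in WD+oil against ND+oil, at 4.66 and 5.31, and Fitm1 lies farthest to the left in ND+CCl4 against ND+oil, at -2.68.

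Read by whether libraries overlap, 9 of the 10 genes (all but Pnpla2) had both WD+oil libraries above every ND+oil library, and 40.7% of all tested genes did so, with 5.18% wholly below. Wider splits named above, such as western diet against normal diet libraries or CCl4 against oil, were not counted over all tested genes. Against ND+oil, WD+CCl4 was above all 3 libraries for 8 of the 10, beside 51.5% of tested genes, below them for Fitm1, beside 13.4%, and within their range for Cideb. Both WD+oil libraries were above both ND+CCl4 libraries for Cidea, Cidec, Plin3, Plin4 and Fitm1, beside 17.1% of tested genes, and below for none, beside 22.8%. In ND+CCl4 against ND+oil, Plin3, Plin5, Fitm2 and Pnpla2 lay wholly above, where 41.8% of tested genes did, and Fitm1 wholly below, where 3.8% did. In WD+CCl4 against WD+oil, Cidea, Cideb, Cidec, Plin4, Fitm1 and Fitm2 were below both WD+oil libraries, beside 36.8% of tested genes, and Plin3 and Plin5 above, beside 26.4%. Cidea, Cidec, Plin3, Plin4 and Fitm1 were higher in WD+CCl4 than in both ND+CCl4 libraries, beside 23.2% of tested genes, and Cideb and Pnpla2 below, beside 39.3%. No gene of the 10 was called by limma in that contrast, against 0.261% of tested genes, 0.165% higher and 0.0955% lower. There 4 had an unadjusted p below 0.05, beside 7.1% of tested genes, and the smallest adjusted p were 0.136 for Cidea (1.49 ± 0.30) and 0.212 for Cidec (2.34 ± 0.54). An unadjusted p below 0.05 was reached by 4 of the 10 in WD+CCl4 against WD+oil (Cidea, Cidec, Plin4 and Fitm1), beside 4.19% of tested genes, and by Cidea and Cidec in the interaction, beside 9.78%. Under median-of-ratios scaling, which centres all tested genes near 0, the difference changed sign for Plin2 and Plin3 in ND+CCl4 against ND+oil, Cideb in WD+CCl4 against ND+oil, Pnpla2 in WD+CCl4 against WD+oil and Fitm2 in WD+CCl4 against ND+CCl4, and so did the interaction of Plin3, all of them uncalled.

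The lists of other genes below were also chosen with earlier results of these data known. Their counts are descriptions, and no list was tested as a set. Of 13 genes of lipolysis and its control, 3 rose in WD+oil against ND+oil, none fell and 10 did not pass, beside 3.81% of all tested genes higher and 0.599% lower. Their median log2 difference was 0.32, beside 0.22 over all tested genes. The 3 were Pnpla3, a droplet protein related to Pnpla2 (1.95 ± 0.36, limma adjusted p = 0.0298), the monoglyceride lipase gene Mgll (1.03 ± 0.22, 0.0432) and the lysosomal acid lipase gene Lipa (0.94 ± 0.20, 0.045). In ND+CCl4 against ND+oil none of the 13 was called by limma, and 3 had an unadjusted p below 0.05, a share near the 22.8% of all tested genes. In WD+CCl4 against ND+oil the carboxylesterase gene Ces1f fell (-1.50, limma adjusted p = 0.0484). Shares of all tested genes called there were 0.669% higher and 0.261% lower. Of 20 other droplet proteins tested of 21 listed, the dehydrogenase gene Hsd17b11 rose in WD+oil against ND+oil (0.85 ± 0.19, limma adjusted p = 0.0466). The sterol synthesis genes Nsdhl and Lss fell (-1.88 and -1.01, adjusted p = 0.0142 and 0.0312). The other 17 did not pass, beside 3.81% of all tested genes higher and 0.599% lower. The median log2 difference of the 20 was 0.26, beside 0.22 over all tested genes. In ND+CCl4 against ND+oil, Hsd17b13, a dehydrogenase of hepatocyte droplets, rose (1.37 ± 0.24, limma adjusted p = 0.0404), beside 1.02% of tested genes higher and 0.4% lower. The median of the 20 in that contrast was 0.13, beside 0.26 over all tested genes. In WD+CCl4 against ND+oil none of the 20 was called by limma, with 3 at an unadjusted p below 0.05, beside 15.3% of all tested genes.

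Of 10 nuclear receptors and cofactors that act on droplet genes, limma called none in the 3 contrasts against ND+oil, where 1 in WD+CCl4, 4 in WD+oil and 2 in ND+CCl4 had an unadjusted p below 0.05. The shares of all tested genes at that level were 15.3% in WD+CCl4, 23.3% in WD+oil and 22.8% in ND+CCl4. Pparg, a receptor that drives fat storage genes, was at 6.86 FPKM in WD+CCl4, 10.1 and 8.53 FPKM in WD+oil, 2.99 and 2.40 FPKM in ND+CCl4, and 4.46, 5.26 and 2.25 FPKM in ND+oil. Its difference in WD+oil against ND+oil was 1.10 ± 0.27 (limma, adjusted p = 0.0636), and it was named after its values were seen. The others of the 4 in that contrast were Srebf1 (1.10 ± 0.34, limma adjusted p = 0.104), Nr1h3 (0.51 ± 0.20, 0.178) and Esrra (0.46 ± 0.18, 0.178). Of 15 genes tested of 17 for fatty acid uptake and PPAR targets, 6 rose in WD+oil against ND+oil and none fell, beside 3.81% of all tested genes higher and 0.599% lower. Their median log2 difference was 1.13, beside 0.22 over all tested genes. They included the fatty acid binding gene Fabp4 (2.95, limma adjusted p = 0.0113), the fatty acid hydroxylase gene Cyp4a14 (3.97, 0.0193), the lipoprotein lipase gene Lpl (2.81, 0.0246) and the uptake receptor gene Cd36 (2.67, 0.0294). In ND+CCl4 against ND+oil, Cyp4a14 (3.84, limma adjusted p = 0.0286) and Cyp4a10 (3.09, 0.046) rose, and in WD+CCl4 against ND+oil Fabp4 rose (2.92, 0.0265). Of all tested genes, 1.02% were called higher and 0.4% lower in ND+CCl4 against ND+oil. In WD+CCl4 against ND+oil these shares were 0.669% and 0.261%. None of 11 genes of lipophagy and droplet contact with mitochondria was called by limma against ND+oil. At most 3 of them per contrast had an unadjusted p below 0.05, beside the shares at that level given above for the receptors.

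Cidea, Cidec and Plin4 are also genes of fat tissue, so markers of adipocytes were read beside them. Of 6 white adipocyte markers, Adipoq, Lep, Plin1 and Retn were at 0 in all 8 libraries. Lipe and Adrb3 were above 0 in all 8, and limma called neither against ND+oil. Lipe was at 4.85 FPKM in WD+CCl4, 3.13 and 3.69 in WD+oil, 3.92 and 3.68 in ND+CCl4, and 2.34, 2.71 and 2.74 in ND+oil. The list summed to 6.84 FPKM in WD+CCl4, 5.05 to 5.20 in WD+oil, 4.46 to 5.55 in ND+CCl4 and 3.90 to 5.87 in ND+oil. Cfd and Fabp4, which fat tissue also expresses, were not on that list and were higher in WD+oil than in ND+oil. Cfd was at 0 FPKM in WD+CCl4, 23.3 and 18.8 in WD+oil, 0 and 0 in ND+CCl4, and 0, 0.811 and 0 in ND+oil. Fabp4 was at 38.5 FPKM in WD+CCl4, 33.5 and 46.0 in WD+oil, 17.7 and 8.76 in ND+CCl4, and 3.09, 5.79 and 4.15 in ND+oil. The part of fat tissue in these levels was not tested. Of 5 brown adipocyte markers, Ucp1, Cox8b and Prdm16 were at 0 in all 8. The list, which includes Elovl3, a gene that hepatocytes also express, summed to 11.4 FPKM in WD+CCl4, 23.9 to 51.6 in WD+oil, 10.1 to 12.1 in ND+CCl4 and 65.3 to 266 in ND+oil. The 8 macrophage markers summed to 154 FPKM in WD+CCl4, 237 to 446 in WD+oil, 53.8 to 185 in ND+CCl4 and 27.4 to 57.1 in ND+oil. Like Cidea and Cidec, this sum was highest in WD+oil. Of the markers, Adgre1, Clec4f, Timd4, Marco and Cd5l had both WD+oil libraries above every other library. Gpnmb and Trem2 were instead highest in ND+CCl4 library 1, at 30.4 and 9.82 FPKM. Cd68 in that library (29.5 FPKM) lay above WD+oil library 1 (21.5 FPKM). Unlike Cidea and Cidec, the marker sum in the higher ND+CCl4 library lay above that in WD+CCl4. None of the 8 markers was at 0 in all libraries, and 5 of 8 rose in WD+oil against ND+oil (limma), beside 3.81% of all tested genes. The part of macrophage content in the levels of Cidea, Cidec, Plin4 and Plin3 was not tested.

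The genes whose profiles were closest to those of some of the 10 were ranked by the root mean square difference of log2(FPKM + 1), centred on the gene's mean over the 8 libraries, among 11513 other tested genes. Predicted genes, clones and Riken names were left out when the closest genes were named. They were kept in the ranks of the 10 genes for each other. For Cidea the closest were Cfd (0.67), Cidec (0.78) and the macrophage receptor gene Marco (0.81), and for Cidec they were Cidea (0.78), Rad51b (0.86) and Ear2 (0.87). Ranked over all 11513, Cidec stood 2nd for Cidea, and Plin4 stood 11th for Cidea and 26th for Cidec. For Plin4 the closest were Fabp2 (0.23), Fos (0.29) and Fads2 (0.34), and for Plin2 they were Ldha (0.15), Tor3a (0.17) and C5ar1 (0.17). Fitm1 was added to this ranking after its values were seen, and its closest genes were Clstn3 (0.53), Glul (0.62), the glutamine synthetase gene of hepatocytes next to the central vein, and Lhpp (0.64). A gene with small differences between libraries has small distances to many others, so the distance is read within a gene and not between genes.

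**Figure D4:**
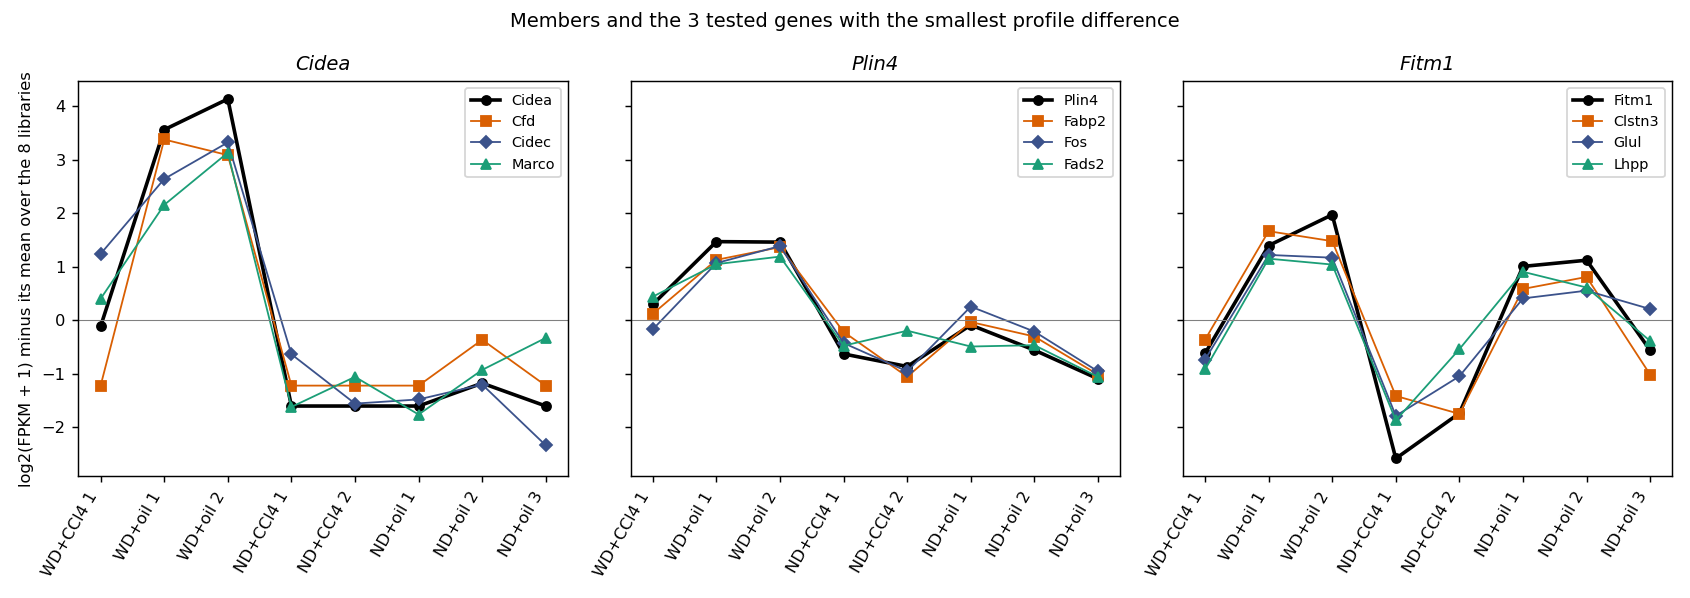
Level of Cidea, Plin4 and Fitm1 (black) and of the 3 genes closest to each (coloured) in each library, as log2(FPKM + 1) minus the gene's mean over the 8 libraries (vertical axis), with libraries along the horizontal axis. Predicted genes, clones and Riken names were left out when the 3 were taken. The panels of Cidea and Plin4 peak in the WD+oil libraries, with distances of 0.67 to 0.81 and 0.23 to 0.34, and that of Fitm1 is lowest in the ND+CCl4 libraries, with distances of 0.53 to 0.64.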

How the data were processed

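Liver RNA was sequenced from 8 libraries in 4 groups after TruSeq Stranded mRNA preparation, per the labels' protocols. The authors deposited FPKM per gene. The submitters' processing notes name StringTie 2.1.0, HISAT2 2.2.1, cutadapt 3.7 and FastQC 0.11.9, with the build GRCm38, and no role for each. No counts were used, so depth and counting error are unknown, and whole reads were not recovered from the FPKM.

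All 8 libraries entered 1 fit of log2(FPKM + 1) with a mean per group (limma 3.58.1 in R 4.3.3, eBayes with a trend), on the 11514 genes that reached 1 FPKM in 2 or more libraries. Residual, prior and total degrees of freedom were 4, 3.93 and 7.93. Tests were two-sided, with Benjamini-Hochberg adjustment over all tested genes within each of 7 contrasts: each group against ND+oil, the 3 other pairs, and the diet by CCl4 interaction. A fold change on this scale understates the change of low genes. The fit was tested on simulated data.

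The 10 genes and the 10 lists of other genes were chosen with earlier results of these data known. From a list, genes that passed against ND+oil were named, at most 4 per contrast by p, with markers and lipase partners added. Fitm1 was added to the likeness ranking after its values were seen. Pparg, Srebf1, Nr1h3 and Esrra were named after their values were seen. Cfd and Fabp4 were likewise set beside the adipocyte markers after their values were seen. Coordinates are from GENCODE M21 (GRCm38) and promoters from RefSeq (GRCm38.p6); 9 of the 10 genes, with 11 promoters, were searched, and Cidea was not used there. No 2 libraries held identical values. Results were recomputed without a filter, with a mean FPKM of at least 5, with a pseudocount of 0.1, with median-of-ratios scaling, without the Mup genes (rescaled), with a replicate block, without each library in turn, and by unadjusted p.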

Additional observations from a re-analysis of the deposited data

Results flagged for a closer look

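The difference between CCl4 and oil for Cidea was -3.96 on the log2 scale under the western diet and -0.14 under the normal diet, a limma interaction of -3.82 (adjusted p = 0.0286). Under the normal diet the gene was listed at 0 in 4 of 5 libraries and could not be lower with CCl4, and it passed the filter through its western diet libraries alone, so the interaction largely restates the western diet value and is no evidence that the effect of CCl4 differs between diets. It passed under none of the 6 processing alternatives (limma, adjusted p from 0.0514 to 0.424 with a pseudocount of 0.1).

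For Cideb, western against normal diet gave opposite signs under the 2 injections, with -0.18 under CCl4 and 0.38 under oil. The western diet + CCl4 library lay below both normal diet + CCl4 libraries, and both western diet + oil libraries lay above all normal diet + oil libraries. The limma interaction of -0.56 did not pass (adjusted p = 0.587).

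For Fitm2, CCl4 against oil gave opposite signs under the 2 diets, with -0.20 under the western diet and 0.65 under the normal diet. The western diet + CCl4 library lay below both western diet + oil libraries, and both normal diet + CCl4 libraries lay above all normal diet + oil libraries. The limma interaction of -0.86 did not pass (adjusted p = 0.51). Each of these rests on the single western diet + CCl4 library.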

How the results depend on the processing

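Of the 70 limma tests of the 10 genes, 11 passed, and no call changed direction under any alternative; of 933 values under alternatives 24 had the opposite sign or were 0, none of them called. In WD+oil against ND+oil, 4 of the 10 genes were called, 2 without a filter, 7 by unadjusted p (beside 23.3% of all tested genes) and 1 to 6 with 1 library left out. In ND+CCl4 against ND+oil the count was 0, and 1 with a mean FPKM of at least 5, with the Mup genes removed or with the replicate block, 4 by unadjusted p and 0 to 2 with 1 library left out. In WD+CCl4 against ND+oil it was 1, and 0 with a pseudocount of 0.1, without a filter, with a mean FPKM of at least 5, with median-of-ratios scaling, with the Mup genes removed and with the replicate block, 5 by unadjusted p and 0 to 1 with 1 library left out. In WD+CCl4 against WD+oil it was 1, and 0 with a pseudocount of 0.1, a mean FPKM of at least 5 or the replicate block, 4 by unadjusted p and 0 to 1 with 1 library left out. In WD+CCl4 against ND+CCl4 it was 0, and 4 by unadjusted p. In WD+oil against ND+CCl4 it was 4, with 1 without a filter and 1 to 4 with 1 library left out. The interaction had 1, and 0 under the same 6 alternatives as WD+CCl4 against ND+oil, 2 by unadjusted p and 0 to 1 with 1 library left out. Without a filter 202 of 16535 genes were above 0 in the WD+CCl4 library alone and had no residual spread. The cause of the shifts between settings was not tested.

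Genes called in all numbered 508 in WD+oil against ND+oil, and 121 without a filter, 190 with a mean FPKM of at least 5, 283 with median-of-ratios scaling, 313 with the Mup genes removed, 32 with the replicate block and 4 to 1159 with 1 library left out. They numbered 164 in ND+CCl4 against ND+oil (18 without a filter, 91 with median-of-ratios scaling, 49 with the block, 22 to 1165 with 1 library left out) and 107 in WD+CCl4 against ND+oil (43 with a pseudocount of 0.1, 171 without a filter, 42 with a mean FPKM of at least 5, 6 with the block, 36 to 486). They numbered 5 in WD+CCl4 against WD+oil (0 with a pseudocount of 0.1, a mean FPKM of at least 5 or the block, 69 without a filter, 1 to 16), 30 in WD+CCl4 against ND+CCl4 (15 with a pseudocount of 0.1, 109 without a filter, 11 with the block, 6 to 32), 71 in WD+oil against ND+CCl4 (6 without a filter, 1 to 122) and 7 in the interaction (3 with a pseudocount of 0.1 or a mean FPKM of at least 5, 17 without a filter, 0 with median-of-ratios scaling or the Mup genes removed, 2 with the block, 0 to 168). Higher calls made up 86.4% in WD+oil and 72% in ND+CCl4 against ND+oil, and 74.9% and 40.7% with median-of-ratios scaling. The labels do not say what libraries with the same replicate number share. Deviations of same-numbered libraries from their group mean correlated between -0.279 and -0.014. This cannot settle whether they shared a batch, because deviations mirror each other in a group of 2 libraries and the lone WD+CCl4 library has none. In the block fit ND+oil library 3 had a block of its own and so gave no information. With the block, the calls of Plin3 in WD+oil against ND+oil (limma, adjusted p = 0.193), Cidec in WD+CCl4 against ND+oil (0.187), Cidea in WD+CCl4 against WD+oil (0.0759) and Cidea in the interaction (0.083) were lost, and that of Fitm1 in ND+CCl4 against ND+oil was gained (0.00765).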
